A study of Mus musculus with 2 samples.

Results

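The 38 genes described here act in mitosis, in the condensation of chromosomes and in cytokinesis. They were chosen by name from a list of known cell division genes, not by their values, although earlier results of these data were known. Each name matched exactly 1 of 55536 mouse genes in the GENCODE M21 gene table. Their levels were measured in polyadenylated RNA by paired-end RNA-seq in the mouse erythroid line G1E-ER4, whose parent cells lack Gata1 and which carries GATA1 as a fusion that estradiol switches on. All cells had received 17beta-estradiol at 10 nM over 24 h, and 1 group of 2 libraries was analysed, numbered replicate 1 and replicate 2. The labels tie both libraries to 1 biosample and name no separate cultures, and their spread may therefore be technical only. No untreated or parental sample was analysed here, so the values are levels in treated cells and no test between conditions was possible.

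Entry into mitosis depends on CDK1 bound to A- and B-type cyclins, which CDC25 phosphatases activate and which Aurora and Polo kinases assist. Chromosomes are compacted by condensin and by topoisomerase II, and are attached to the spindle at centromeres under the watch of the spindle checkpoint. The anaphase-promoting complex (APC/C) with CDC20 then marks securin and cyclin B for destruction, separase cuts cohesin, and centralspindlin, ECT2 and anillin direct the furrow that divides the cell. In these cells GATA1 is known to end proliferation as the cells mature, and terminal erythroid cells pass through a few last divisions.

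Replicate 1 held 71485620 expected counts and replicate 2 held 14121747, or 5.06 times fewer, which leaves replicate 2 with the larger counting error. All 9 erythroid markers were at 1 TPM (a transcript level corrected for length and scaled to a fixed total per library) or more in both libraries, and summed to 169642 TPM in replicate 1 and 70644 TPM in the other, and the part of that gap in the differences given here was not tested. Most of each sum came from Hbb-bs (97719 and 34786 TPM) and Hba-a1 (67200 and 30385 TPM). Among the 9 is Gata1, which these cells carry as the introduced fusion. Of markers of other cells, 2 of 5 megakaryocyte genes reached 1 TPM in both. None did among 6 granulocyte and monocyte, 4 mast cell, 5 lymphoid and 5 stromal or endothelial genes, and the 4 mast cell genes had 0 counts in both libraries. The median log2 ratio of replicate 2 over replicate 1 was -0.32 over the 8546 protein-coding genes with a mean count of 50 or more, so members are read against that shift. The log2 ratio used TPM + 1. Of the 9 erythroid markers 5 were over 2-fold lower by TPM in replicate 2, beside 35.2% of the genes compared. Only Klf1 was over 2-fold higher, beside 15.2%, at 634 and 2134 TPM.

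Cell division genes were well represented in both libraries. Of the 38 genes, 35 were at 1 TPM or more in both, beside 33.1% of all 22028 protein-coding genes. The 3 that were not were Mad2l1, at 0.91 TPM in replicate 2, Cenpe, at 0.35 TPM in replicate 2, and Ttk, at 0.77 TPM in replicate 1. In both libraries 7 genes reached 100 TPM, beside 3.59%: Ccna2, Plk1, Cdc20, Cenpa, Cdca8, Smc4 and Ncapd2. Levels ran from 0.77 to 621 TPM in replicate 1, with a median of 28.5 TPM, and from 0.35 to 720.0 TPM in replicate 2, with a median of 6.64 TPM. The lowest ranks among all protein-coding genes were those of Ttk at percentile 61.8 in replicate 1 and Cenpe at percentile 60.6 in replicate 2. The order of the members was alike in both libraries, with a Spearman rho of 0.87 over the 38 genes, given as a description because the genes share both libraries.

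**Figure D1:**
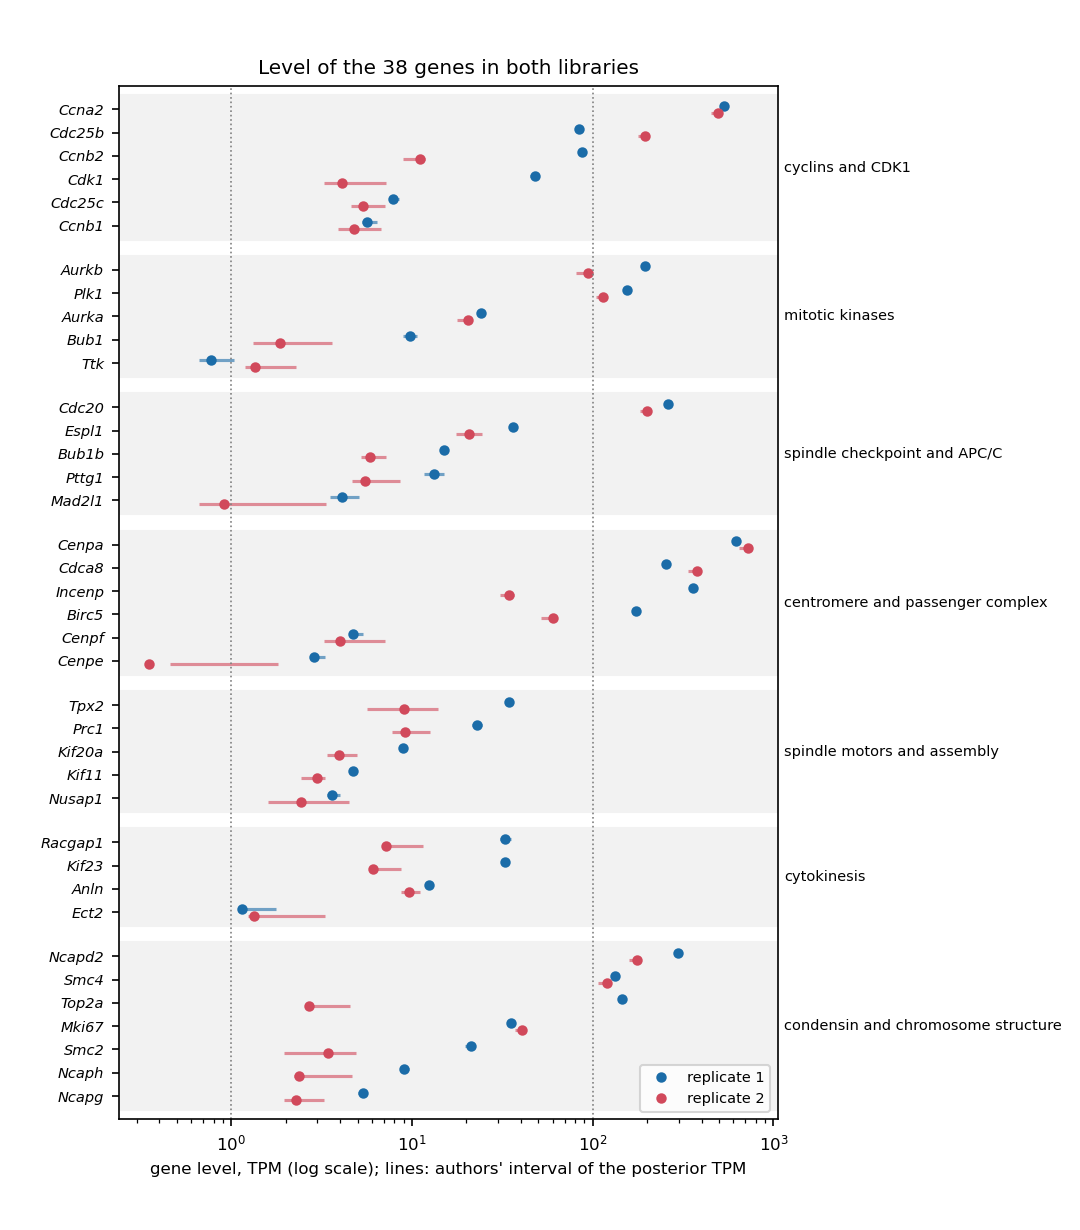
Level of each of the 38 genes in TPM on a log axis, grouped by role, with replicate 1 in blue and replicate 2 in red; horizontal lines are the authors' intervals of the posterior TPM and dotted lines mark 1 and 100 TPM. The 7 genes at 100 TPM or more in both libraries stand to the right of the second dotted line, and Top2a shows the widest gap, 146 TPM against 2.70 TPM.

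Most members were lower in replicate 2 than in replicate 1. The median log2 ratio of the 38 genes was -0.87 by TPM, where 32 were lower and 6 higher, and -1.27 by CPM (counts scaled to library size, not corrected for length), where 35 were lower and 3 higher. The median over all genes compared was itself -0.32 by TPM and -0.65 by CPM, and 27 of the 38 lay below it in each. Over 2-fold lower by TPM were 19 of 38, beside 35.2% of the genes compared, and over 5-fold lower were 8, beside 13.7%. Over 2-fold higher was 1 gene, Cdc25b, beside 15.2%. By CPM 24 were over 2-fold lower, beside 41.3%. The authors' intervals of the 2 libraries did not overlap for 34 members, beside 75.4% of the genes compared, so a gap wider than the intervals was common among genes that are not members too. As the libraries belong to 1 group, this describes how far they differ and not a change with treatment. Fewer dividing cells, less RNA per cell and a technical difference between the libraries cannot be told apart in these bulk RNA data.

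The size of that difference moved with scaling and with a correction for GC content. Relative to the median of all genes compared, the members' median log2 ratio was -0.55 by TPM and -0.62 by CPM. It was -0.35 in the table the authors made directly from reads once its TPM was rescaled over nuclear protein-coding genes, where 10 members were over 2-fold lower and the median of all genes was -0.12. The share of all genes over 2-fold lower was not counted under that rescaling. Before rescaling, all 38 were lower in that table, with a median of -1.69 beside -1.32 over all genes. The members' transcripts held 47.4% GC at the median, against 51.0% over the genes compared, and with the trend of the ratio over GC removed the members' median was -0.47. Removing that trend also takes out the shift of all genes, so -0.47 is to be read beside -0.55 and not beside -0.87. Across the 38 genes GC and the log2 ratio had a Pearson r of 0.08, against 0.18 across 8543 genes, both without replicates among genes. Over 9 scalings and tables, 23 members were lower in replicate 2 in every one, 15 changed direction and 0 were higher in every one. Of all genes compared, 44.3% were lower in every one and 3.89% higher in every one. The 9 include the unscaled table made from reads, where all 38 members were lower, so no member could be higher in every one. Ttk, Cenpa and Cdc25b were higher in 8 of the 9 and lower only in that table. Some of the 9 only rescale the same counts. Ccnb2, Cdk1, Bub1, Cenpe, Incenp, Birc5, Kif23, Top2a and Smc2 were over 2-fold lower in all 9, which held for 16% of all genes compared. The 9 leave out protein-coding transcripts alone, on which Cdk1 was 1.64-fold apart. Cdk1, Bub1, Cenpe and Smc2 had only 30, 33, 34 and 36 counts in replicate 2. Apart from the genes over 2-fold lower in all 9, the other 10 members over 2-fold lower by TPM were not so in the rescaled table made from reads. There the ratio of replicate 2 over replicate 1 was 0.757 for Aurkb, 0.625 for Bub1b, 0.547 for Mad2l1, 0.600 for Racgap1 and 0.617 for Ncaph. It was 0.963 for Pttg1 and 1.26 for Ncapg, and Kif20a, Prc1 and Tpx2 are given with their group.

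**Figure D2:**
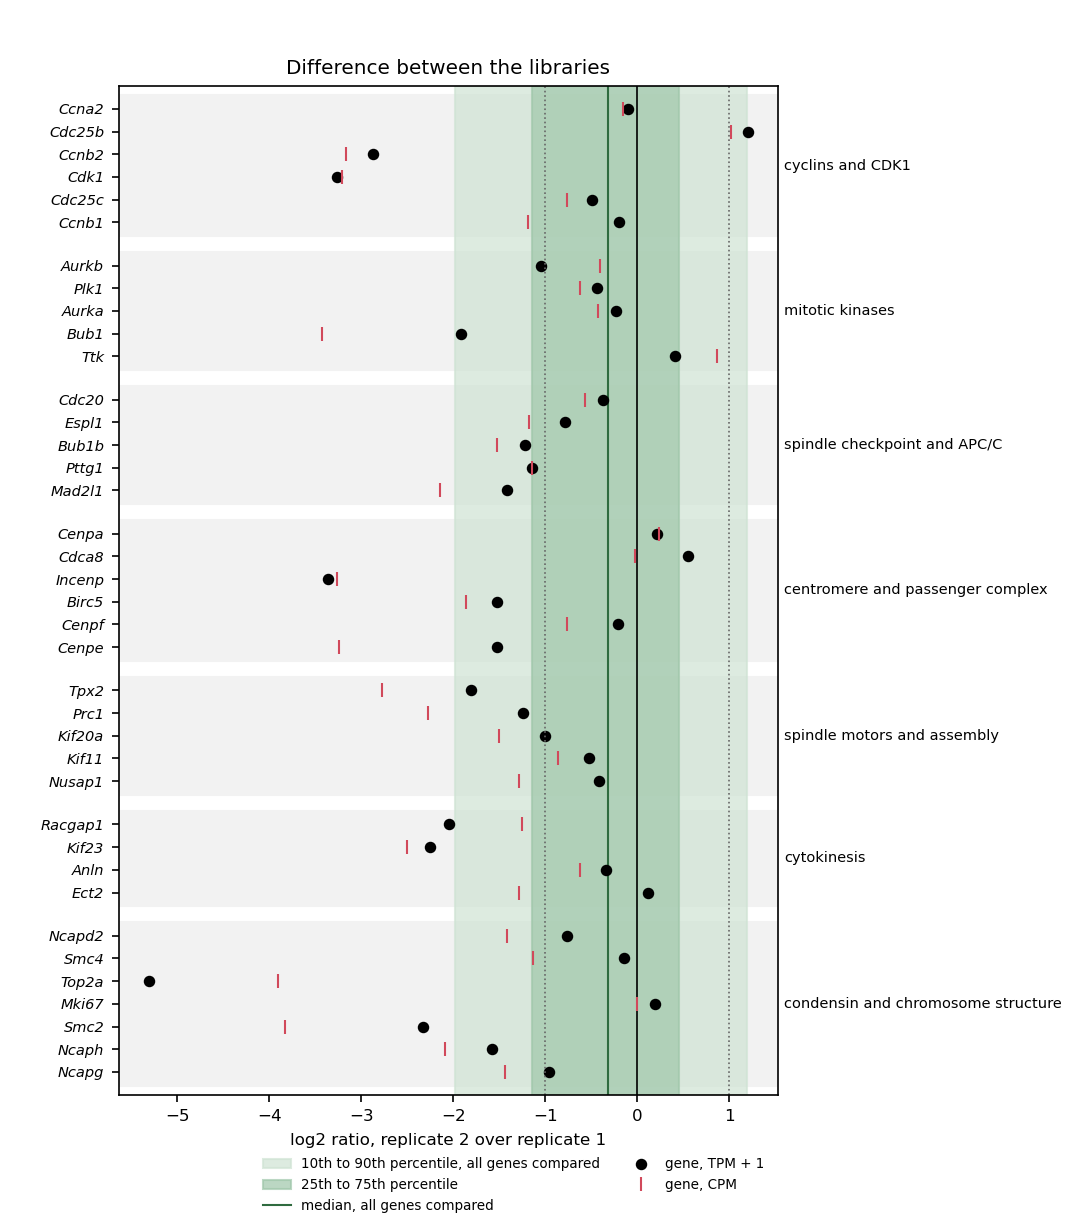
Log2 ratio of replicate 2 over replicate 1 for each of the 38 genes, as black points by TPM + 1 and red ticks by CPM; green bands span the 25th to 75th and the 10th to 90th percentile of 8546 protein-coding genes by TPM + 1, the green line is their median of -0.32, and dotted lines mark 2-fold. Most points lie left of the green line, with Top2a furthest left and Cdc25b furthest right.

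Mitotic genes are known to share short promoter words: the cell cycle genes homology region (CHR), bound by the DREAM and MuvB complexes, and CCAAT boxes, bound by NF-Y. RefSeq promoters of assembly GRCm38.p6, from 250 bases before to 50 after the annotated start, were found for 31 of the 38 genes, not for Ccna2, Aurkb, Incenp, Kif20a, Tpx2, Cdc25c and Smc4. To show the words in place, 1 promoter is printed for each role, namely of the member with the highest mean TPM that holds both words from 150 bases before to 29 after the start base, which is counted as 0. Capitals mark TTTGAA, the CHR word, and CCAAT, each on either strand, so that TTCAAA and ATTGG are the same words on the other strand. The stretches are Ccnb2 at chr9:70421525-70421704 on the minus strand, Ttk at chr9:83834539-83834718 on the plus strand, Cdc20 at chr4:118437314-118437493 on the minus strand, Cenpa at chr5:30666736-30666915 on the plus strand, Prc1 at chr7:80294301-80294480 on the plus strand, Racgap1 at chr15:99651627-99651806 on the minus strand, Ncapd2 at chr6:125191557-125191736 on the minus strand.
Ccnb2: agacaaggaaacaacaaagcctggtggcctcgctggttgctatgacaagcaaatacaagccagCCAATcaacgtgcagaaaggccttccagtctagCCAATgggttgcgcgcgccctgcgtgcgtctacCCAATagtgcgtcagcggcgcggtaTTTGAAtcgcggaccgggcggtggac
Ttk: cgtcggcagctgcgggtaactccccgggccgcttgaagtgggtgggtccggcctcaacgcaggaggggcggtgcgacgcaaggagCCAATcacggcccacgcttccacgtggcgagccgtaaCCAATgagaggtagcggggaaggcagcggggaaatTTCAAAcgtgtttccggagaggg
Cdc20: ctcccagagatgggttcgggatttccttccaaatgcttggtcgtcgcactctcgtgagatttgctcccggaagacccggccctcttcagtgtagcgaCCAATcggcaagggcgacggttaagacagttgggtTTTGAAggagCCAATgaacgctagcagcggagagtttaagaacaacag
Cenpa: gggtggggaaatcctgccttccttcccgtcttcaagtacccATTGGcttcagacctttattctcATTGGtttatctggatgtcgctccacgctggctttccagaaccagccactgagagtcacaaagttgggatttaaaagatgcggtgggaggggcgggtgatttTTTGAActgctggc
Prc1: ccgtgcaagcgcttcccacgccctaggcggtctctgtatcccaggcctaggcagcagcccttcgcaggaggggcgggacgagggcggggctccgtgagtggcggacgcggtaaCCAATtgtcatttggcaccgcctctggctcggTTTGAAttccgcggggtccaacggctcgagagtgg
Racgap1: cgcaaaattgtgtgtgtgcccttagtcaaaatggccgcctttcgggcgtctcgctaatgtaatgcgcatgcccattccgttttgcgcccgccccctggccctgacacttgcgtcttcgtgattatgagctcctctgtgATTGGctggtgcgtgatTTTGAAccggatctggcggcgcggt
Ncapd2: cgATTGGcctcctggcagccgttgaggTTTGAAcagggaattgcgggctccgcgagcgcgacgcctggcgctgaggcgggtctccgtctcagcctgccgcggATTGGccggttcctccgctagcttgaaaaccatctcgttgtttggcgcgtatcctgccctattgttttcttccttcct

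The CHR word TTTGAA was present in 22 of the 31 member promoters, against 18.1% of 27025 promoters in the table, and CCAAT in 25 of 31, against 37.9%. Both words together stood in 21 of 31, against 7.12% of all. The CHR word lay close to the start: 21 of 31 member promoters held it from 100 bases before to 50 after, against 8.08% of all, and its 29 matches had a median position of -5. CCAAT had 50 matches with a median position of -66. Each word was searched on both strands, and matches of different words could overlap. The CHR variants TTTAAA and TTCGAA were in 7 (13.2% of all promoters) and 4 (1.57%), and the ETS word CGGAAG was in 9 (17.2%). The E2F words TTTCCCGC and TTTGGCGC were in 1 each (1.11% and 0.537%), in Ncapg and Ncapd2. AGATAA, a word GATA factors bind, was in 3 (11.4%), those of Cenpa, Espl1 and Top2a. A match is only a run of letters in this window and says nothing of binding.

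**Figure D3:**
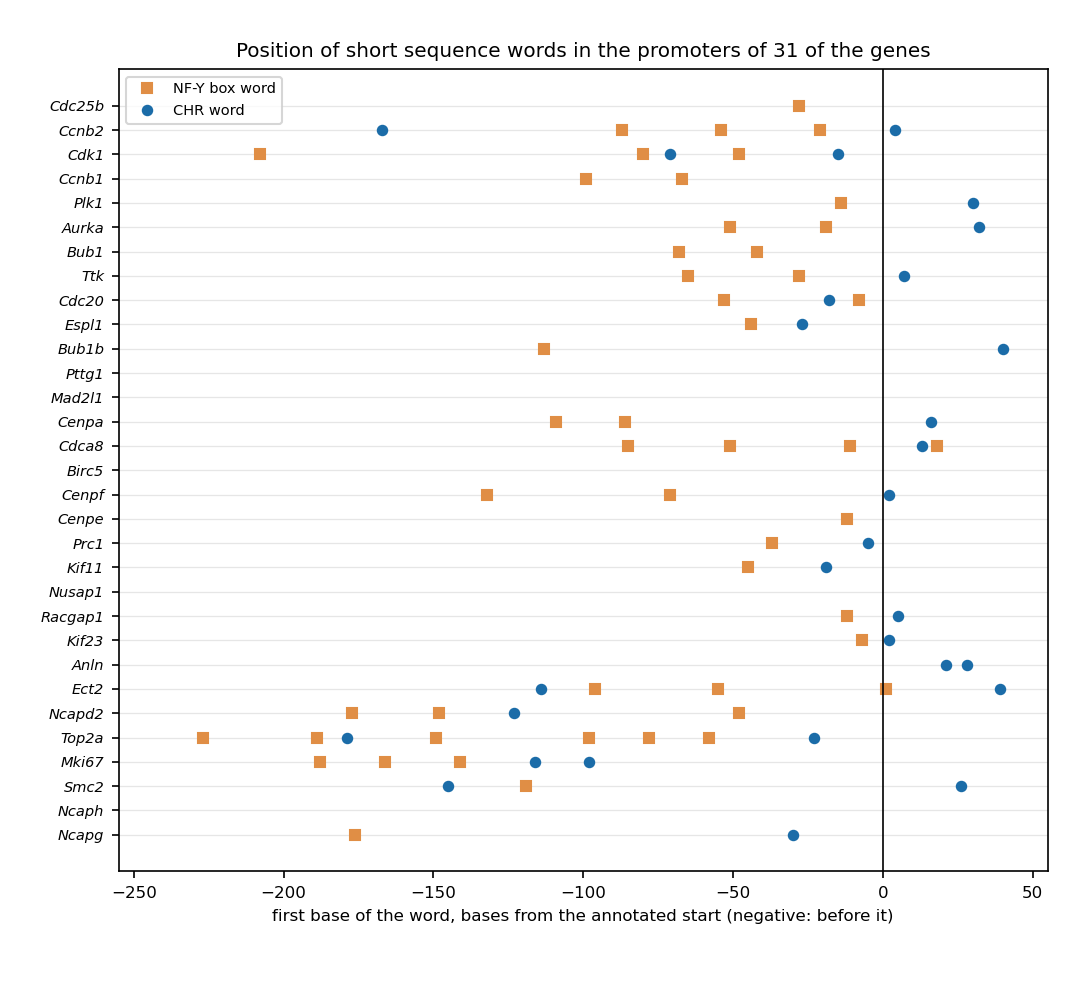
Position of the CHR word (blue circles) and the NF-Y box word (orange squares) in the promoters of 31 members; the x axis gives the distance of the word's first base from the annotated start in bases. Circles gather around the start while most squares lie before it, and rows without symbols hold neither word.

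Among cyclins, CDK1 and its activators, levels differed widely and the genes did not move together. Ccna2, cyclin A2, acts in S phase and early mitosis and stood at 530.0 and 495 TPM in replicates 1 and 2, the order kept for every pair of values, or 512.3 ± 25.003 TPM (SD, n = 2). Ccnb2, a cyclin B, was at 86.9 and 11.04 TPM, on 8689 and 191 counts, 7.87-fold apart by TPM and 8.99-fold by CPM. Cdk1, the mitotic kinase itself, was at 48.2 and 4.11 TPM, 11.7-fold apart. Replicate 1 was high for both of the last genes, while Ccna2 was nearly level between the libraries by TPM (ratio of replicate 2 over replicate 1 of 0.285 in the unscaled table made from reads), so that Ccna2 over Ccnb2 was 6.10 in replicate 1 and 44.8 in replicate 2, and 6.28 and 22.9 in the table made from reads. On protein-coding transcripts it was 0.571 and 5.90, so there Ccnb2 was the higher in replicate 1. Ccnb1, the other cyclin B, was at 5.63 and 4.76 TPM, with intervals that overlapped (5.33 to 6.38 and 3.88 to 6.74 TPM). Ccnb2 exceeded Ccnb1 15.4-fold in replicate 1 and 2.32-fold in replicate 2, and 6.82-fold and 1.52-fold in the table made from reads, so Ccnb2 was the higher in each. The phosphatase gene Cdc25b, which starts CDK1 activation, was at 84.0 and 194 TPM, the only member over 2-fold higher in replicate 2, although its ratio of replicate 2 over replicate 1 was 0.619 in the unscaled table made from reads. Its relative Cdc25c was far lower, at 7.90 and 5.34 TPM.

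The mitotic kinases spanned a wide range. Aurkb, the kinase of the chromosomal passenger complex, was at 195 and 94.5 TPM and Plk1, the Polo kinase, at 155 and 114 TPM. Aurka, which acts at spindle poles, measured 24.2 and 20.5 TPM, a mean of 22.3 ± 2.62 TPM (SD, n = 2). By TPM Plk1 was 1.35-fold and Aurka 1.18-fold lower in replicate 2. In the unscaled table made from reads the ratio of replicate 2 over replicate 1 was 0.201 for Plk1 and 0.346 for Aurka, and once rescaled it was 0.626 and 1.08, so Aurka turned direction. Aurkb exceeded Aurka 8.08-fold and 4.62-fold by TPM, and 1.81-fold and 2.78-fold on protein-coding transcripts. In the table made from reads protein-coding transcripts held 14.5 and 2.18 TPM for Aurkb and 24.2 and 8.63 TPM for Aurka. The order of the 2 genes was thus the reverse there. Bub1, a checkpoint kinase at kinetochores, was at 9.79 and 1.86 TPM, on 1798 and 33 counts. Ttk, which encodes the checkpoint kinase MPS1, was the lowest of the group at 0.77 and 1.36 TPM, on 128 and 46 counts, and was higher in replicate 2 except in the unscaled table made from reads.

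Of the checkpoint and APC/C genes, Cdc20 stood apart. This activator of the APC/C measured 260 and 201 TPM, a mean of 230.2 ± 41.7 TPM (SD, n = 2), on 30885 and 4121 counts. Bub1b, whose product BUBR1 holds CDC20 in check, was at 15.01 and 5.88 TPM, and Mad2l1, the checkpoint protein MAD2, at 4.11 and 0.91 TPM. On the TPM scale Cdc20 was far above both of its inhibitors in each library. Separase, Espl1, was at 36.2 and 20.6 TPM and its inhibitor securin, Pttg1, at 13.3 and 5.48 TPM. The level of Pttg1 over Espl1 was 0.366 and 0.266, and 0.540 and 0.748 in the table made from reads, so the separase gene was the higher in each.

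The genes of the centromere and the passenger complex included the highest member in the M21 gene table. Cenpa, the histone H3 variant that marks centromeres, stood at 621 and 720.0 TPM, with a mean of 671 TPM and an SD of 69.8 TPM (n = 2), on 22981 and 5347 counts. In the M4 gene table Cenpa was at 341 and 801 TPM, a wider gap, and in replicate 1 it lay below Ccna2 at 556 TPM. Its protein-coding transcripts held 60.1% and 46.9% of its TPM in the M21 tables, but 27.7% and 18.3% of its expected counts. Cdca8, borealin, was at 256 and 376 TPM, higher in replicate 2 by TPM but with a CPM ratio of replicate 2 over replicate 1 of 0.985. On protein-coding transcripts it was at 120 and 101 TPM, lower in replicate 2. By gene TPM the other passenger subunits went the other way from Cdca8. Incenp, the scaffold of the complex, was at 361 and 34.3 TPM, 10.5-fold apart, on 52695 and 1088 counts, and Birc5, survivin, was at 175 and 60.0 TPM, 2.91-fold apart. Relative to Aurkb in the same library, Incenp was 1.85 and 0.363, Birc5 0.894 and 0.635, and Cdca8 1.31 and 3.97, so the subunits of this complex kept no fixed ratio by TPM. In the table made from reads the same ratios were 2.22 and 0.826, 0.673 and 0.242, and 1.009 and 1.77. On protein-coding transcripts they were 5.54 and 0.496, 4.09 and 1.05, and 2.81 and 1.77. Cdca8 over Aurkb was thus lower in replicate 2 there, the reverse of its direction by gene TPM. The kinetochore motor Cenpe was at 2.89 and 0.35 TPM, and in replicate 2 that value, from 34 counts, lay below the authors' own interval of 0.458 to 1.82 TPM. Other members had a replicate 2 TPM outside its interval too, also at high counts. Among them was Cenpa, whose interval was 648 to 704 TPM. Cenpf, a large kinetochore protein, was at 4.74 and 3.98 TPM, with intervals that overlapped.

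Spindle motors and assembly factors were modest in level. Tpx2, which activates Aurora A on the spindle, was at 34.3 and 9.09 TPM, and Prc1, which bundles the central spindle, at 22.9 and 9.10 TPM. Kif20a, a kinesin of the central spindle, was at 8.93 and 3.95 TPM. These 3 were over 2-fold lower in replicate 2, but in the rescaled table made from reads the ratio of replicate 2 over replicate 1 was 0.936 for Tpx2, 0.793 for Kif20a and 0.601 for Prc1. Kif11, the motor that separates the poles, was at 4.74 and 3 TPM, and Nusap1, a microtubule bundling protein, at 3.60 and 2.44 TPM with overlapping intervals.

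In cytokinesis the genes of centralspindlin, Kif23 and Racgap1, were both lower in replicate 2. Kif23, its kinesin, was at 32.8 and 6.09 TPM and Racgap1, its GTPase activator, at 32.9 and 7.18 TPM. Their ratio was 0.999 and 0.848, but 0.896 and 0.466 in the table made from reads and 0.578 and 0.267 in the M4 table, so their levels were nearly equal only in the M21 gene table. By TPM Kif23 was 5.39-fold and Racgap1 4.58-fold lower in replicate 2, and by CPM 5.68-fold and 2.37-fold. Racgap1 was over 2-fold lower in 6 of the 9 scalings and tables. Anln, the furrow scaffold anillin, differed less, at 12.4 and 9.63 TPM, with an SD of 1.99 TPM (n = 2). Ect2, the exchange factor that activates RhoA, was near the detection threshold at 1.15 and 1.33 TPM, on 284 and 23 counts, and its intervals overlapped.

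Condensin genes differed strongly among themselves. Ncapd2 was at 298 and 176 TPM and Smc4 at 133 and 120.2 TPM. Their partners in condensin I were much lower: Smc2 at 21.2 and 3.44 TPM, Ncaph at 9.03 and 2.37 TPM, and Ncapg at 5.34 and 2.27 TPM. Smc4 over Smc2, which pair in every condensin, was 6.27 and 34.9 by TPM, and was 8.42 and 50.1 in the table made from reads and 17.8 and 41.8 on protein-coding transcripts. Ncapd2 over Ncaph was 33.0 and 74.1, but 33.5 and 25.5 in the table made from reads and 4.60 and 2.17 on protein-coding transcripts. The higher gene of each pair was thus the same in each, while the size of the ratio, and for Ncapd2 its direction between the libraries, was not. Top2a, topoisomerase II alpha, had the widest gap between libraries, at 146 and 2.70 TPM, 53.9-fold by TPM and 15.004-fold by CPM, on 12836 and 169 counts. Mki67, the proliferation antigen that coats mitotic chromosomes, was nearly level at 35.5 and 40.8 TPM, or 38.2 ± 3.79 TPM (SD, n = 2), with a CPM ratio of 0.995. Top2a and Mki67, both used as markers of dividing cells, thus differed in how far the libraries stood apart.

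The level of a gene is the sum over its annotated transcripts. In GENCODE a transcript can be typed as protein coding, as a retained intron, as a target of nonsense-mediated decay or as a processed transcript without a reading frame. The share of a gene's TPM on transcripts typed protein coding had a median of 90.8% over members in replicate 1 and 87.4% in replicate 2, against 92.9% and 96.7% over the protein-coding genes compared. In 7 of the 38 members it was under 50% in both libraries, beside 19.8% of the genes compared. These were Ccna2, Cdk1, Mad2l1, Cdca8, Ect2, Smc2 and Ncapd2, and in all of them the highest transcript was not typed protein coding in either library. For Ccna2, Cdk1, Mad2l1, Ect2 and Ncapd2 the share was also under 50% in both libraries of the table made from reads, where Smc2 had 31.1% and 99.97% and Cdca8 63.5% and 54.3%.

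The highest transcript was not typed protein coding in 10 members in replicate 1 and 12 in replicate 2, beside 27.7% and 32.8% of genes compared that have more than 1 transcript. It was under 1000 bases in 8 of these members in each library, and the share of all genes with such a short one was not counted. Ccna2-202, a retained intron of 856 bases at chr3:36570451-36571964 (mm10), held 90.5% and 86.8% of Ccna2 TPM, and the protein-coding transcripts held 49.7 and 65.1 TPM. Cdk1-204, a retained intron of 475 bases, held 95.5% and 68.4%, which left 2.13 and 1.30 TPM of protein-coding Cdk1. In expected counts, which are not divided by length, protein-coding transcripts held more, 29.2% and 37.2% for Ccna2 and 23.3% and 60.0% for Cdk1. The short annotated lengths therefore weigh on the gene's TPM: a count on a 475-base transcript adds more TPM than a count on a full-length one. Ncapd2 was carried by retained introns in the last part of the gene, of which Ncapd2-202 (825 bases) held 48.6% and 29.7% and another of 894 bases held 2.64% and 52.6%. Its protein-coding TPM was 37.9 and 5.11.

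Some gene-level differences shrank or grew on protein-coding transcripts alone. For Top2a, the processed transcript Top2a-202, 632 bases long at the 5′ end of the gene, held 82.7% of TPM in replicate 1 and was at 0 TPM in replicate 2, also in the table made from reads (84.1 and 0 TPM). The full-length Top2a-201 was at 23.2 and 2.67 TPM, 8.68-fold apart in place of 53.9-fold for the gene. Smc4 went the other way, 1.11-fold apart at the gene by TPM and 2.19-fold by CPM, but 9.51-fold apart by TPM on protein-coding transcripts (95.3 and 10.0 TPM), and Smc4-211, a nonsense-mediated decay target of 784 bases, held 26.1% and 90.9% of the gene's TPM. Cdk1 was 1.64-fold apart on protein-coding transcripts, on 18 counts in replicate 2. In the table made from reads its protein-coding transcripts were at 2.16 and 0.340 TPM, a wider gap. Aurkb was at 42.7 and 56.9 TPM on them, higher in replicate 2, but the split is uncertain, since Aurkb-204 held 129 and 0 TPM in the main table and 129 and 29.3 TPM in the table made from reads. Ccnb1 was at 4.74 and 0.63 TPM, Bub1 at 7.25 and 0.64 TPM and Ect2 at 0.33 and 0 TPM, where 0 is a listed estimate.

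Counted on protein-coding transcripts, 31 of 38 members were at 1 TPM or more in both libraries, beside 28.2% of protein-coding genes. In both libraries 4 reached 100 TPM, beside 2.34%: Cenpa, Cdc20, Plk1 and Cdca8. Over 2-fold lower in replicate 2 were 22, beside 43.2%. In 16 members, beside 45.2% of the genes compared, 90% or more of TPM lay on protein-coding transcripts in both libraries. The median log2 ratio of these 16 was -0.48, beside -0.32 over all genes compared, and 7 of them were over 2-fold lower in replicate 2, beside the 35.2% given above: Ccnb2, which has a single annotated transcript, Bub1b, Cenpe, Birc5, Prc1, Ncaph and Ncapg. Both background values cover all genes compared. They were not computed over the genes with the same protein-coding share, so the comparison is not like for like. In the rescaled table made from reads Bub1b, Prc1, Ncaph and Ncapg were not over 2-fold lower, and Ncapg was higher, with a protein-coding share of 33.9% in replicate 2. Others of the 16, among them Mki67, Plk1, Aurka and Cdc20, were under 2-fold apart by TPM.

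**Figure D4:**
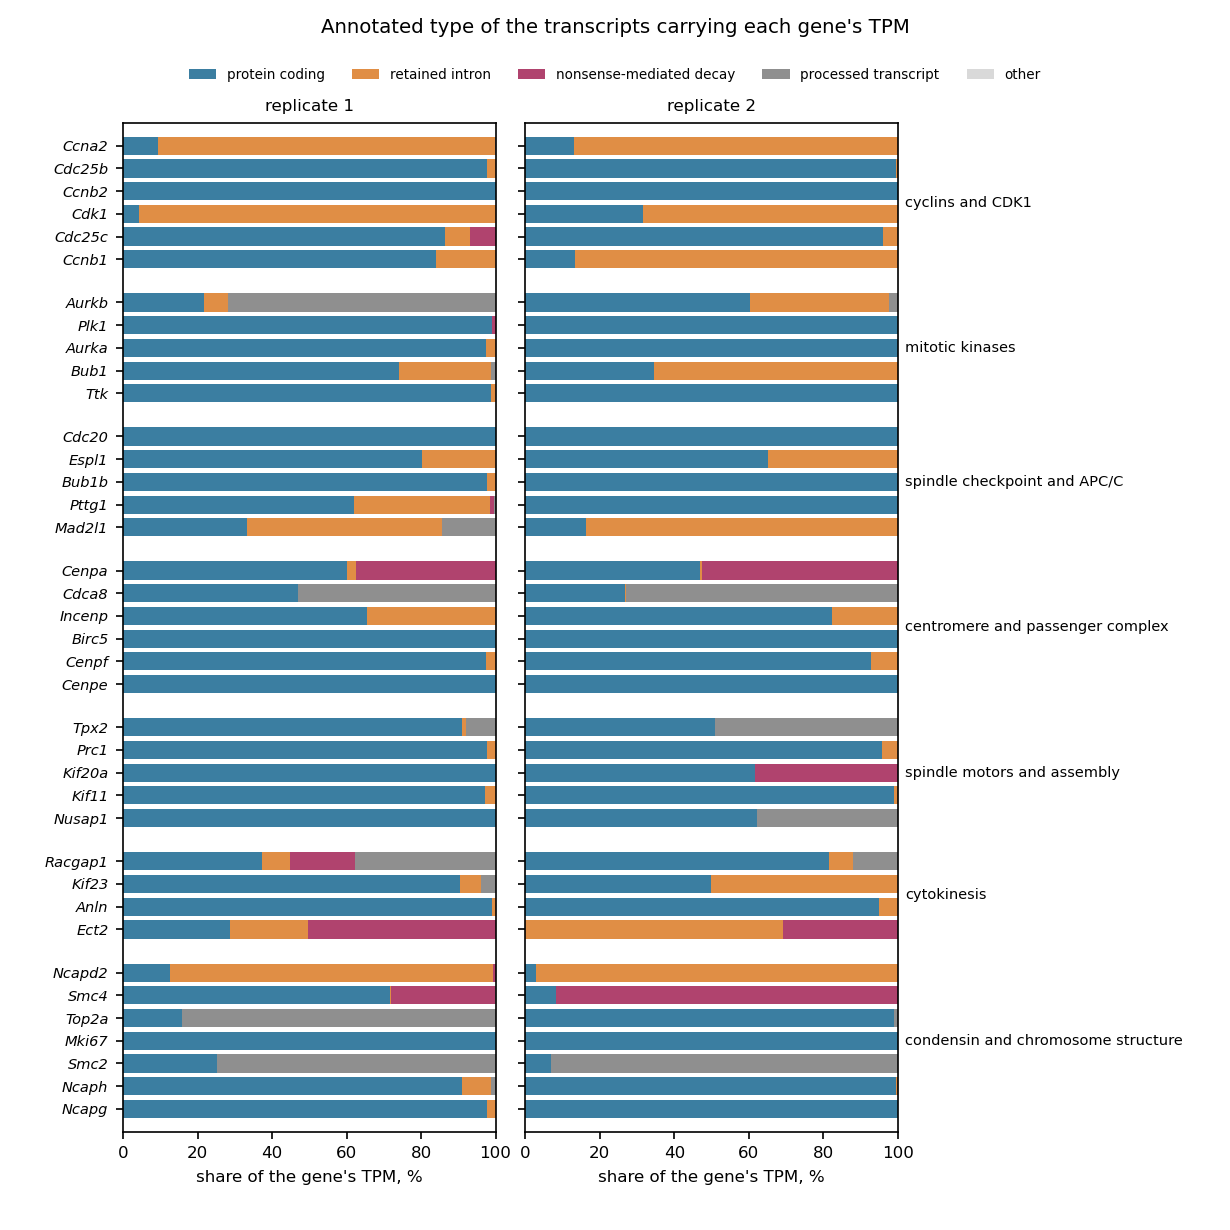
Share of each gene's TPM on transcripts of each annotated type, replicate 1 on the left and replicate 2 on the right, with genes grouped by role. Plk1, Cdc20, Ccnb2 and Mki67 are nearly all protein coding in both panels, while Ccna2 and Ncapd2 are mostly retained intron in both and Top2a changes from processed transcript to protein coding.

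The transcript with the highest TPM was the same in both libraries for 27 of 38 members. Ccnb2 has only 1 transcript, and of the other 37 members 26 kept theirs, beside 62.8% of genes with more than 1. It was the same one in both libraries of both M21 transcript tables for 17 members, and the share of all genes was not counted for this. The 11 that changed were Ccnb1, Aurkb, Bub1, Cenpa, Kif23, Racgap1, Ect2, Prc1, Top2a, Smc4 and Ncapd2. For Cenpa, Cenpa-209, a protein-coding transcript of only 369 bases, led in replicate 1 at 335 TPM, and Cenpa-202, a nonsense-mediated decay target of 1031 bases, led in replicate 2 at 378 TPM. In the table made from reads Cenpa-209 also led in replicate 1, but a protein-coding transcript of 346 bases led in replicate 2 with 59.3% of Cenpa TPM.

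Genes of the same pathways, from lists of 149 further genes, were counted in the same way: 119 were at 1 TPM or more in both libraries, and of 137 with a mean count of 50 or more, 71 were over 2-fold lower in replicate 2 and 10 over 2-fold higher, beside 35.2% and 15.2% of all genes compared. Lower and higher mean over 2-fold by TPM in the lists that follow, each to be read beside those shares, and no difference between lists was tested. Among kinetochore and checkpoint genes 22 of 34 compared were lower and 1 higher, and the highest were Pmf1, of the MIS12 complex, at 181 and 110.1 TPM and Cenpm at 126 and 30.3 TPM. Of other spindle and kinesin genes 16 of 23 were lower and 0 higher, led by Numa1, a spindle pole protein, at 154 and 94.0 TPM and Stmn1, which destabilises microtubules, at 223 and 4.14 TPM. All 3 condensin II genes were lower, the highest being Ncaph2 at 101 and 42.0 TPM and Ncapg2 at 24.95 and 5.66 TPM.

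Of the APC/C genes 7 of 17 were lower and 1 higher, and the ubiquitin-conjugating enzymes of the complex led it, Ube2s at 635 and 969.6 TPM and Ube2c at 404 and 248 TPM. Of cohesin genes 7 of 15 were lower and 1 higher, led by the loader Mau2 at 47.3 and 69.4 TPM and the release factor Wapl at 33.3 and 43.6 TPM, while the meiotic Smc1b and Stag3 had 0 counts. Of genes that control CDK1, 5 of 15 were lower and 3 higher, led by Ccne1, cyclin E1, at 146 and 368 TPM and Pkmyt1, an inhibitory kinase of CDK1, at 80.6 and 209 TPM. Ccna1, Ccnb3 and Plk2 had 0 counts in both. In cytokinesis 2 of 14 further genes were lower and 3 higher, led by the ESCRT genes Pdcd6ip at 321 and 719 TPM and Chmp4b at 177 and 160.2 TPM. Of the factors that regulate transcription of mitotic genes 9 of 16 were lower and 1 higher. The highest were Lin37, a MuvB subunit, at 160.1 and 164 TPM and E2f1 at 54.2 and 95.9 TPM.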

How the data were processed

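The 38 genes and the lists of related genes were chosen with earlier results of these data known. Per the file descriptions the main tables came from alignments to the transcriptome on mm10, and 1 table directly from reads. The tools and the strand setting are not stated in those descriptions, so overlapping genes may share reads. The column names are those RSEM and kallisto write. Expected counts, as deposited, are fragment estimates for each gene or transcript with no scaling. The authors' TPM are scaled to a fixed total per table. The deposited posterior mean TPM and interval bounds were treated as a signal, the interval level being unstated, and the deposited effective length in bases was read as another quantity.

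The M21 gene and transcript tables were the main tables. The M4 tables and the table made from reads were alternatives, as were scalings by edgeR TMM and by DESeq2 after rounding the expected counts, the posterior mean, other thresholds and each replicate alone. CPM, transcript shares and ratios were computed here. Detection meant 1 TPM in both libraries, and ratios were taken over protein-coding genes averaging 50 or more expected counts, which all 38 members passed. The GC trend was the median ratio of the genes compared in 20 bins of GC content, subtracted from each gene's ratio. All 38 members are named. Of each further list the 2 genes with the highest mean TPM and up to 3 with 0 counts in both replicates are named. Promoter words were searched on both strands of RefSeq promoters. The code for the fold calls was tested on simulated data, which bears on the code and not on the libraries. The tools were R 4.3.3 with edgeR 4.0.16 and DESeq2 1.42.0, and Python 3.11.15 with pandas 2.3.3, numpy 2.4.6, matplotlib 3.10.9 and scipy 1.17.1.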

Additional observations from a re-analysis of the deposited data

How the results depend on the processing

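With 1 group of 2 libraries there was no test, so stability is read from values alone. No paired analysis was possible because there is only 1 group. Of the 13 recomputed median log2 ratios, 0 changed sign. The median of all genes compared was also negative in each table and scaling that was not centred, from -1.32 to -0.12. An unchanged sign there is therefore not particular to the members. Detected members numbered 23 at a threshold of 5 TPM, and 36 and 37 with 1 replicate alone. Members at 100 TPM or more numbered 2 in the table made from reads, 4 at a threshold of 200 TPM, 4 on protein-coding transcripts (an alternative chosen after seeing the data), and 8 to 11 with 1 replicate alone. The median level was 6.64 and 28.5 TPM with 1 replicate alone, against 19.7 TPM over the mean of both.

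Members over 2-fold lower in replicate 2 numbered 19, but 36 in the table made from reads, 10 in that table rescaled over nuclear protein-coding genes and 12 at a 3-fold threshold. The count of members over 2-fold higher was 1, but 2 with M4, edgeR TMM, DESeq2 size factors, centring on all genes or a 1.5-fold threshold, and 0 in the table made from reads or at a 3-fold threshold. Under M4 the second gene was Cenpa, and under edgeR TMM and DESeq2 size factors it was Ttk. In the rescaled table made from reads the 1 gene was Cenpa, not Cdc25b. The share of all genes was not counted under the alternatives named for these fold calls, so the counts describe the members only. The median log2 ratio of -0.87 became -1.69 in the table made from reads, -0.35 in it rescaled, -1.27 by CPM, -0.55 centred on all genes and -0.47 with the GC trend removed, the last chosen after seeing the data. As the GC removal also centres on all genes, -0.47 is to be read beside -0.55. The median protein-coding share was 80.9% as the mean of both replicates, 72.3% by the posterior mean, and 87.4% to 90.8% with 1 replicate alone. The cause was not tested. Members had 23 to 6874 counts in replicate 2, 12 of them under 100, which limits their transcript shares most.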
